A study of Mus musculus with 6 samples.

Results

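The genes of the constitutive proteasome were followed in fetal mouse epidermis modelling Harlequin Ichthyosis, an inherited disease in which the skin barrier fails. They were taken as genes whose symbol in the platform annotation is Psma, Psmb, Psmc or Psmd followed by a number, without Psmb8, Psmb9 and Psmb10, the subunits of the inducible immunoproteasome. Psmc3ip, which begins with the same letters but encodes a recombination factor, was left out. The annotation held 36 such genes on 64 probes, and 29 of them, on 49 probes, had a probe detected on 3 or more of the 6 arrays, out of 11567 genes with such a probe. The rule used detection and not the difference between the groups.

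Epidermis of the back skin was taken at stage E17.5 as a peel freed from dermis with EDTA, and its total RNA was measured on Illumina bead arrays. The 6 samples, all of strain C57BL6, fall into 3 labelled wild type and 3 labelled Harlequin Ichthyosis mutant, and the comparison asks how the mutant epidermis differs. The labels name neither the mutated gene nor its allele, call the samples of a group biological replicates, and do not state whether a sample is a single embryo. The sample names begin with bo20 for arrays 1 and 2 of each group and with bo12 for array 3 of each group, and the labels do not say what these prefixes stand for.

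The proteasome is the barrel-shaped protease that degrades proteins tagged with ubiquitin in the cytosol and nucleus. Its core particle, the 20S, stacks rings of alpha subunits, which gate the entrance, around rings of beta subunits, of which Psmb5, Psmb6 and Psmb7 carry the protease active sites. The cap, the 19S, binds it at the end: a base of ATPases (Psmc) and large scaffold and receptor subunits unfolds the substrate, and a lid removes the ubiquitin chain. In mammalian cells the genes of both particles are raised together by the transcription factor Nfe2l1 when proteasome activity is short, and cells under interferon replace the active-site subunits by Psmb9, Psmb10 and Psmb8.

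Mean raw intensity ranged from 260 to 463 over the 6 arrays, and 17159 to 18422 of 45281 probes were detected per array. Wild-type array 3 stood apart: over the 18358 kept probes, which share arrays and are no replicates of each other, it correlated with the other arrays at a Pearson's r of 0.836 to 0.891, and the other 5 correlated among themselves at 0.965 to 0.990. The log2 difference of each gene below is therefore also given without it. All 8 keratinocyte markers on the array were measured, with a mean log2 level of 12.41 to 13.28 by array. Markers of other cells were present too: the 8 of skeletal muscle averaged 10.95 in wild-type array 3 and 12.42 to 13.13 on the others, and 7 of 8 dermal fibroblast markers, those measured, averaged 9.56 there and 10.87 to 11.47 elsewhere. These means take the brightest probe of each marker, and probes of the same marker could disagree on wild-type array 3. There Lum was at its highest, 12.80, by its brighter probe and at its lowest, 6.94, by the other. In bulk RNA, fewer cells of a type and less RNA per cell cannot be told apart, and what set the marker levels of this array was not tested.

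No proteasome gene was called different between mutant and wild-type epidermis, which does not show that the levels were equal. None of the 29 genes passed an adjusted p of 0.05 in limma, where 0.0% of the 18358 kept probes passed, and none had an unadjusted p below 0.05, compared with 5.87% of kept probes. The log2 difference, mutant minus wild type, had a median of 0.13 over the 29 genes, 17 being above 0 and 12 below, while over all kept probes the median was -0.04 and 46.1% were above 0. Without wild-type array 3 the median was 0.09, with 21 above 0 and 8 below (0.01 and 50.9% above 0 for all kept probes). No gene of the 29 passed there either, where 0.278% of kept probes did, with the title prefix as a block, where 0.261% did, or with array weights, where 0.703% did.

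The precision of these differences was read from the 95% intervals. With all arrays, the interval lay within 1 log2 unit of 0 on both sides for 20 of the 29 genes (69.0%, and 55.6% of kept probes). Without wild-type array 3 this held for 27 (93.1%, and 80.2% of kept probes), the exceptions being Psmd2 and Psmd14. The median absolute difference without that array was 0.11 for the proteasome genes and 0.19 for all kept probes. Proteasome probes were brighter, with a median log2 level of 11.56 against 6.88 for all kept probes, so the comparison with all probes does not hold brightness fixed. The 29 are also the brightest kept probe of each gene, a choice not made for all kept probes. Over all 49 kept proteasome probes the median level was 10.93. Their interval lay within 1 log2 unit of 0 for 59.2%, and for 83.7% without wild-type array 3. Of the 49, 65.3% were above 0, and 63.3% without that array.

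**Figure D1:**
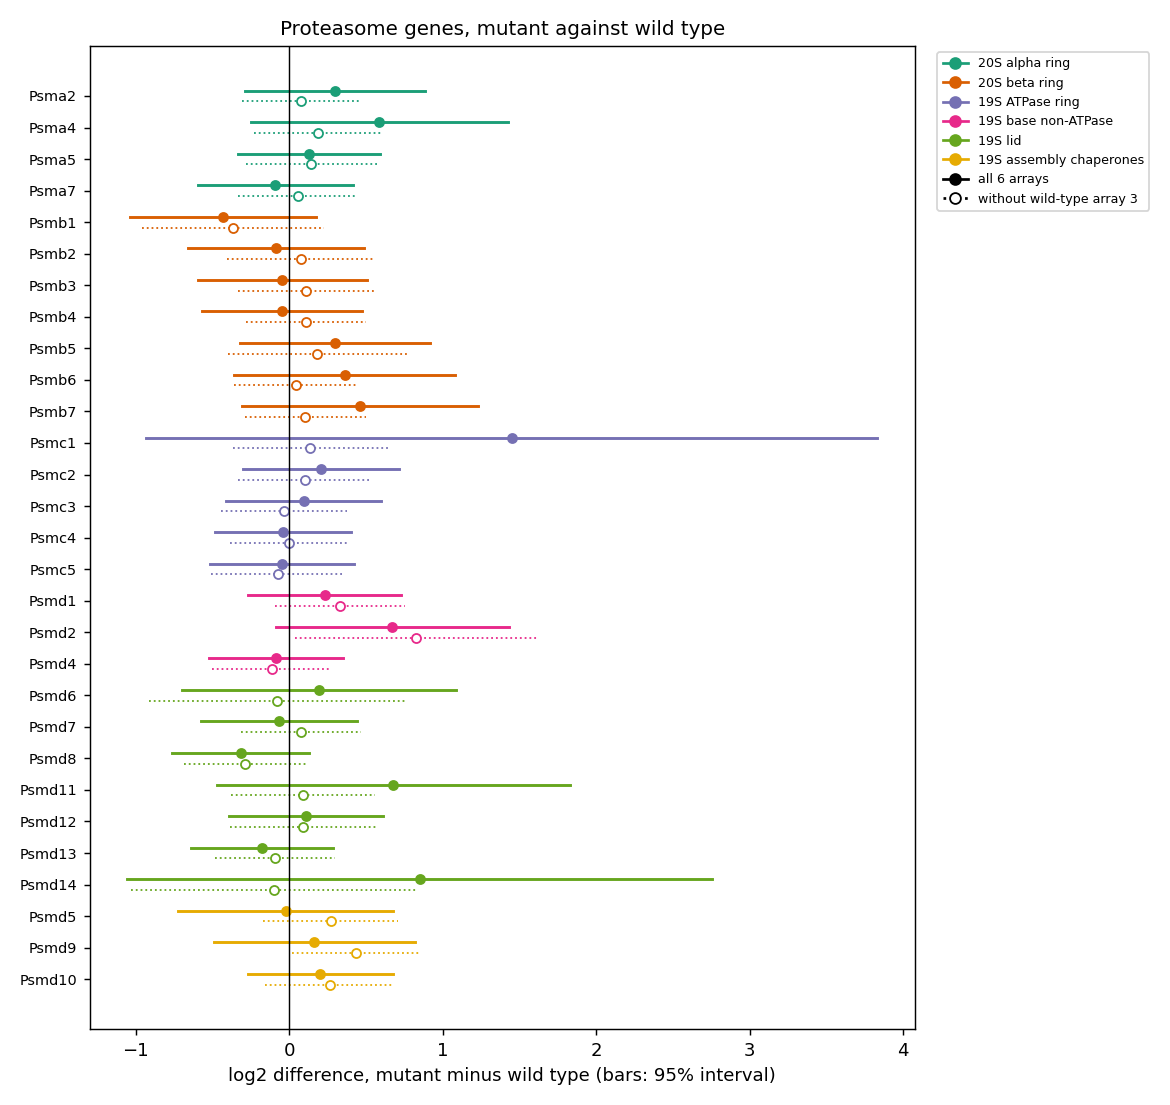
Log2 difference, mutant minus wild type, of the 29 proteasome genes, grouped by subcomplex; filled points and solid lines are the fit on all 6 arrays with its 95% interval, open points and dotted lines the fit without wild-type array 3. With that array left out every gene except Psmd2 lies within 0.5 log2 units of 0, and the wide intervals of Psmc1, Psmd11 and Psmd14 shrink.

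The values of all 3 mutants lay apart from all 3 wild-type values for 3 of the 29 genes (10.3%; 13.3% of kept probes). Psma2 and Psmd2 were on the higher side, where 5.63% of kept probes lie, and Psmd8 on the lower, where 7.68% lie. That share is near the background, and the differences are given with each gene below.

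The alpha ring, which forms the outer gate of the core, was represented by 4 of 8 genes. Levels are log2 normalized intensities, listed by array number within each group. Psma2 read 13.17, 13.26 and 12.55 in wild type and 13.29, 13.26 and 13.32 in mutants. The higher mean of the mutants rests on the low value of wild-type array 3, since the other 5 arrays lay between 13.17 and 13.32, with wild-type array 2 and mutant array 2 equal to 2 decimals. The difference was 0.30 (SE 0.25, limma adjusted p = 0.791) and 0.08 without wild-type array 3. Psma4 read 11.63, 11.83 and 10.55 in wild type and 11.99, 11.79 and 12.00 in mutants, a difference of 0.59 (SE 0.36, adjusted p = 0.791). Again the wild-type array 3 was the lowest, and without it the difference was 0.19. Psma5 read 12.63, 12.58 and 12.64 in wild type and 12.85, 12.56 and 12.82 in mutants, with overlapping groups and a difference of 0.13 (SE 0.20, adjusted p = 0.841), or 0.15 without wild-type array 3. Psma7, by its brighter probe, differed by -0.09 (SE 0.21), or 0.06 once that array was left out. The median of the ring was 0.22, with 3 genes above 0 and 1 below, and 0.11 without wild-type array 3, with 4 above 0. Psma1, Psma3, Psma6 and Psma8, of which Psma8 is a testis form of the ring, were detected on 0 arrays by their probes.

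The beta ring holds the protease chamber, and 7 of its 8 genes were measured. Psmb6, which cleaves after acidic residues, read 12.29, 12.38 and 11.38 in wild type and 12.46, 12.28 and 12.39 in mutants. Psmb7, which cleaves after basic residues, read 11.89, 12.03 and 10.89 in wild type and 12.12, 12.07 and 12.01 in mutants by its brightest probe. Psmb5, which cleaves after hydrophobic residues and is the target of bortezomib, read 9.99, 9.42 and 9.36 in wild type and 9.86, 9.64 and 10.17 in mutants. For Psmb6 and Psmb7 the low mean of wild type came from array 3, whereas the 2 groups of Psmb5 were interleaved. The differences were 0.36 (SE 0.31) for Psmb6, 0.46 (SE 0.33) for Psmb7 and 0.30 (SE 0.26) for Psmb5, with limma adjusted p of 0.791, 0.791 and 0.793. Without wild-type array 3 they were 0.04 (95% interval -0.36 to 0.44), 0.11 (-0.29 to 0.50) and 0.19 (-0.40 to 0.77).

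Among the beta subunits without an active site, Psmb1 was the lowest in mutants relative to wild type. Its values were 10.98, 10.62 and 10.99 in wild type and 10.10, 10.81 and 10.38 in mutants, where mutant array 2 lay inside the wild-type range. The difference was -0.43 (SE 0.26, adjusted p = 0.791), and -0.36 without wild-type array 3. Psmb2, Psmb3 and Psmb4 differed by -0.08, -0.04 and -0.05, and by 0.08, 0.11 and 0.11 without that array. The ring had a median of -0.04, with 3 genes above 0 and 4 below, and of 0.11 without wild-type array 3, with 6 above 0 and 1 below. Psmb11, the thymus form of Psmb5, was detected on 0 arrays.

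The inducible counterparts were read on the same arrays. The brighter probe of Psmb8, which takes the place of Psmb5, read 7.06, 6.75 and 7.95 in wild type and 8.32, 8.54 and 8.34 in mutants, a difference of 1.15 (SE 0.33, adjusted p = 0.578). Every mutant value lay above every wild-type value, and without wild-type array 3 this probe was 1.48 higher and passed (limma adjusted p = 0.0429). Its difference was 1.50 within bo20 and 0.41 within bo12. The second kept probe of Psmb8 differed by 0.58 (SE 0.21, limma adjusted p = 0.784), again without overlap. Without wild-type array 3 it differed by 0.63 and did not pass (limma adjusted p = 0.395). That probe was dim and was detected on 0 wild-type arrays and 3 mutant arrays. It passed the detection filter through the mutants alone, so its higher mutant values give no independent support to the brighter probe. Of 8 markers of Langerhans cells and macrophages, 7 were measured and all were above 0. They averaged 7.15 to 7.73 in wild type and 7.99 to 8.28 in mutants. Lyz2 differed most, by 1.79 (SE 0.23), and passed without wild-type array 3 at 1.91 (limma adjusted p = 0.0291). Its second probe differed by 1.41, and by 0.53 without that array, and did not pass. The other measured markers differed by 0.16 to 1.18 and none passed. The part of these markers in the Psmb8 difference was not tested. Psmb9 and Psmb10 differed by 0.46 (SE 0.30) and 0.28 (SE 0.24) with overlapping groups, and by 0.58 and 0.37 without wild-type array 3. The difference between the inducible and the constitutive genes was not tested.

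**Figure D2:**
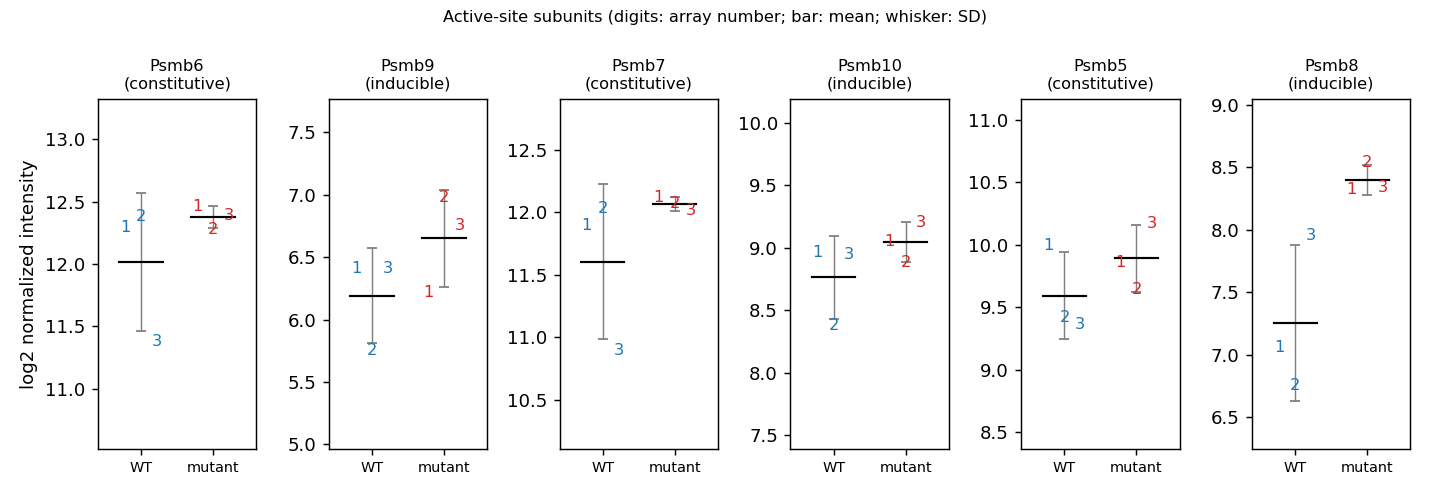
Log2 normalized intensity of the 3 constitutive active-site subunits and, beside each, its inducible counterpart; digits are the array number, the bar the group mean and the whisker the SD (n = 3), and each panel spans the same number of log2 units. The 3 mutant values of Psmb8 lie at 8.32 to 8.54, above the wild-type values, while the wild-type values of Psmb6 and Psmb7 are pulled down by array 3; no probe's level is set against another's.

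Promoter windows from RefSeq, 250 bases before to 50 after the annotated start, matched 24 of the 29 genes. They were searched on both strands for TGACNNNGC, the core of the antioxidant response element to which Nfe2l1 and Nfe2l2 bind. The motif was in 4 of the 24 (16.7%), Psmb5, Psmb6, Psmd9 and Psmd12, and in 14.0% of the 27025 genes in the promoter table. The windows of Psmb6, Psmb5 and Psmd9, the described genes that hold it, are shown with the motif in capitals, so that the letters behind the count can be seen.

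Psmb6 promoter (GRCm38.p6, chr11:70525107-70525406, plus strand): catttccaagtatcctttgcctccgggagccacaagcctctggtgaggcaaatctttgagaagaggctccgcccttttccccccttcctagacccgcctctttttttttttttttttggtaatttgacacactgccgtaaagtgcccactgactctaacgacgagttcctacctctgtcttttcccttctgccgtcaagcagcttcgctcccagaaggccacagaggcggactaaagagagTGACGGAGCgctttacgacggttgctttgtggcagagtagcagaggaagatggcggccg
Psmb5 promoter (GRCm38.p6, chr14:54617946-54618245, minus strand): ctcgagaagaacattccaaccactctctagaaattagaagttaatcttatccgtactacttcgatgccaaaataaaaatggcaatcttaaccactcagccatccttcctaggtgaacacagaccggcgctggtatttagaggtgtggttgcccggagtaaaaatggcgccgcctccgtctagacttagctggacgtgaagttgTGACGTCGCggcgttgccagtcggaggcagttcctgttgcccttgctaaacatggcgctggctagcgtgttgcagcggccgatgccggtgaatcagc
Psmd9 promoter (GRCm38.p6, chr5:123227940-123228239, plus strand): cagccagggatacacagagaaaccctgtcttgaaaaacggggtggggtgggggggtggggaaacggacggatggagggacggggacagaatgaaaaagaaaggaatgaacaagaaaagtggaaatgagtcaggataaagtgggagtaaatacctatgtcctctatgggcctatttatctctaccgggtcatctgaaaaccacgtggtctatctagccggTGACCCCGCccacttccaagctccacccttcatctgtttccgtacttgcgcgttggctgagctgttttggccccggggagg

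Counted from the annotated start, the matched letters begin at -9 in Psmb6, -47 in Psmb5 and -31 in Psmd9. A match describes letters and is not a binding site, and no binding was measured. The mRNA levels of the 2 factors were read on the arrays, and their proteins were not measured. Nfe2l1 read 10.01, 10.00 and 10.22 in wild type and 9.86, 9.94 and 10.39 in mutants, a difference of -0.01 (SE 0.23, adjusted p = 0.986), or 0.06 without wild-type array 3. Nfe2l2, the oxidative stress factor, read 5.28, 5.81 and 4.26 in wild type and 6.40, 6.32 and 5.87 in mutants. All 3 mutant values of Nfe2l2 lay above the wild-type values; the difference was 1.08 (SE 0.41, adjusted p = 0.791) and 0.68 without wild-type array 3, on which it was not detected. Mafg, a small Maf partner of both factors, differed by 0.09 (SE 0.26), and by 0.31 without that array.

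The ATPases of the base unfold substrates and thread them into the core. Psmc1 had the largest difference of the 29 genes with all arrays. It read 10.25, 10.33 and 6.37 in wild type and 10.66, 10.53 and 10.11 in mutants, so wild-type array 3 deviated by -3.97 from the median of the other 5. The difference was 1.45 (SE 1.01, adjusted p = 0.791; 95% interval -0.93 to 3.83), and without that array 0.14 (-0.36 to 0.64). Psmc2 read 12.44, 12.78 and 12.28 in wild type and 12.72, 12.72 and 12.68 in mutants, with overlapping groups and a difference of 0.21 (SE 0.21), or 0.10 without wild-type array 3. Psmc3 read 11.02, 11.25 and 10.75 in wild type and 11.11, 11.16 and 11.04 in mutants, a difference of 0.09 (SE 0.21), which turned to -0.03 without it. The mutant values of both genes stayed inside the wild-type range. Psmc4 and Psmc5 differed by -0.04 and -0.05 (SE 0.19 and 0.20), and by 0.00 and -0.07 without it. The ring's median was 0.09, with 3 of 5 above 0, and 0.00 without wild-type array 3. Psmc6 was detected on at most 2 arrays and was not kept.

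The other base subunits are the scaffolds Psmd1 and Psmd2, to which ubiquitin receptors and shuttle factors dock, and Psmd4, itself a ubiquitin receptor. Psmd2 was the gene with the largest difference once wild-type array 3 was left out. Its brighter probe read 5.06, 6.11 and 5.93 in wild type and 6.64, 6.31 and 6.18 in mutants, and its second 4.32, 4.81 and 4.77 in wild type and 5.27, 5.66 and 5.26 in mutants. On both probes the mutants lay above the wild-type values, but the second was kept only through its detection in the mutants. It therefore gives no independent support to the brighter probe. The differences were 0.67 (SE 0.32, adjusted p = 0.791) and 0.77 (SE 0.24, adjusted p = 0.677), and 0.83 and 0.90 without wild-type array 3 (adjusted p = 0.487 and 0.294). The adjusted p of the brighter probe ran from 0.154 to 0.998 over the alternatives. Within bo20 the differences were 0.92 and 0.98, and within bo12 0.23 and 0.40. Both probes were dim beside the median log2 level of 11.56 of the proteasome genes. The brighter was detected on all 6 arrays. The second lay near the lowest detected values of 4.77 to 4.90 on each array. It was detected on 1 wild-type array and 3 mutant arrays, so that its wild-type mean includes 2 values that were not detected. With an unadjusted p of 0.0148 it was the only kept proteasome probe of 49 below 0.05.

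Psmd1 read 11.82, 12.11 and 12.28 in wild type and 12.37, 12.24 and 12.30 in mutants by its brightest probe. Wild-type arrays 2 and 3 were near the mutant values, and array 1 was the low one. The difference was 0.23 (SE 0.21, adjusted p = 0.793), and 0.33 without wild-type array 3. Psmd4 read 12.68, 12.66 and 12.60 in wild type and 12.55, 12.62 and 12.51 in mutants, a difference of -0.09 (SE 0.19), or -0.11 without wild-type array 3. Its 6 values spanned less than 0.5 log2 units, wild-type array 3 included.

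The lid holds the deubiquitinase of the proteasome, Psmd14, among structural subunits, and 7 of its 8 genes were measured. Psmd14 read 8.49, 8.91 and 5.85 in wild type and 9.20, 8.81 and 7.79 in mutants. The lowest value of each group was its array 3, the array with the bo12 prefix. The difference was 0.85 (SE 0.81, adjusted p = 0.793) and -0.10 (95% interval -1.03 to 0.84) without wild-type array 3. Psmd11, a structural subunit whose amount sets proteasome assembly in human stem cells, read 8.25, 8.30 and 6.53 in wild type and 8.65, 8.31 and 8.17 in mutants. Its difference was 0.68 (SE 0.49, adjusted p = 0.791) and 0.09 without wild-type array 3. Psmd8 was the reverse case: 11.62, 11.73 and 11.77 in wild type and 11.49, 11.36 and 11.33 in mutants, with all 3 arrays of the mutants lower. Its difference was -0.31 (SE 0.19, adjusted p = 0.791), -0.29 without wild-type array 3, -0.25 within bo20 and -0.43 within bo12. Psmd6, Psmd7, Psmd12 and Psmd13 differed by 0.20, -0.07, 0.11 and -0.18, and without wild-type array 3 by -0.08, 0.08, 0.09 and -0.09, so that Psmd6 and Psmd7 changed sign. The median of the lid was 0.11, with 4 above 0 and 3 below, and -0.08 without wild-type array 3, with 3 above and 4 below. Psmd3 was detected on 0 arrays.

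Psmd5, Psmd9 and Psmd10 are not parts of the finished particle but chaperones that hold ATPases while the base is built. Psmd10, also called gankyrin, read 9.60, 9.60 and 9.79 in wild type and 9.69, 10.00 and 9.91 in mutants by its brightest probe, a difference of 0.20 (SE 0.20). Psmd9 read 6.03, 5.88 and 6.74 in wild type and 6.32, 6.29 and 6.53 in mutants, a difference of 0.16 (SE 0.28). Psmd5 read 6.73, 6.92 and 7.70 in wild type and 7.20, 6.91 and 7.17 in mutants, a difference of -0.02 (SE 0.30). In contrast to Psmc1 or Psmd14, wild-type array 3 was the highest array for Psmd5 and for this probe of Psmd9, while on the second Psmd9 probe it was the lowest, at 5.46 against 5.98 to 6.48. Without it the differences of Psmd10, Psmd9 and Psmd5 by these probes were 0.26, 0.44 and 0.27, none past the threshold (smallest limma adjusted p = 0.490). Other probes turned sign there: the second Psmd9 probe stood at 0.20 with all arrays and -0.09 without it, and a Psmd10 probe at 0.68 and -0.11, while the third Psmd10 probe stood at 0.32 and 0.36.

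Psmd10 lies on the X chromosome, and sex-linked genes differed between the arrays. Eif2s3y, a Y-linked gene, read 8.09, 8.56 and 4.22 in wild type and 8.78, 4.99 and 4.24 in mutants. It was high on wild-type arrays 1 and 2 and mutant array 1. Kdm5d, also Y-linked, was detected on those 3 arrays only, at 5.94, 6.13 and 5.97, against 4.45 to 4.59 elsewhere. Arrays with high Y-linked levels were thus not split evenly between the groups. Xist, the RNA of the inactive X, read 4.25, 6.09 and 4.90 in wild type and 6.52, 8.39 and 8.58 in mutants by its brightest probe, a difference of 2.75 (SE 0.66), or 2.72 without wild-type array 3. Its 4 kept probes did not give the same order: on 2 of them every mutant array was above every wild-type array, and on the other 2 wild-type array 3 was the highest, at 8.30 and 7.33. The labels give no sex, and the part of these differences in the proteasome values was not tested.

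**Figure D3:**
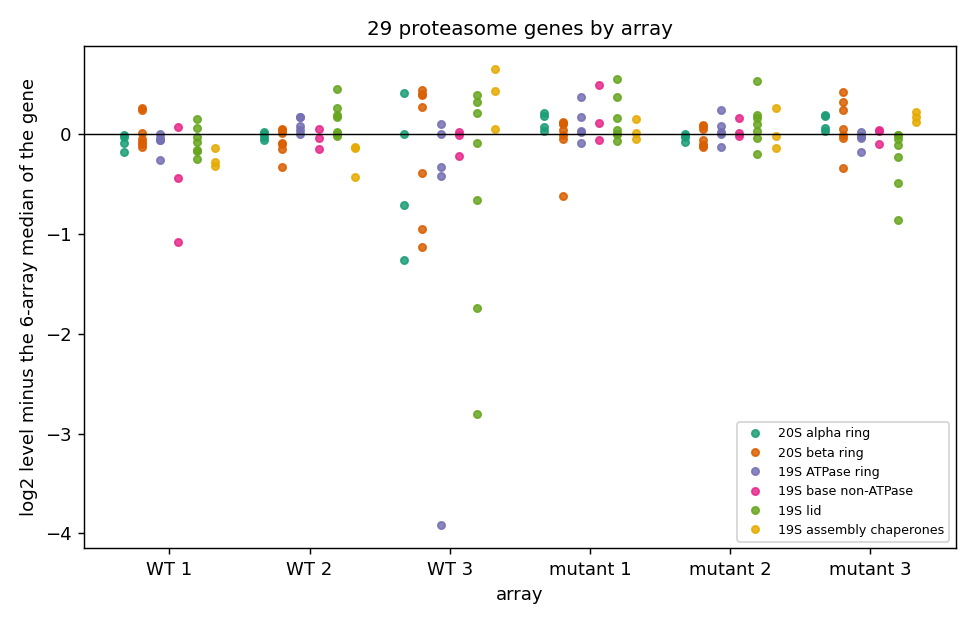
Log2 level of each of the 29 proteasome genes minus its median over the 6 arrays, by array (WT, wild type), coloured by subcomplex. In 5 arrays the genes stay between -1.08 and 0.55, whereas in wild-type array 3 they run from -3.93 to 0.65.

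The scatter of wild-type array 3 was thus not a shift common to the 29 genes. Its value was the lowest of the 6 for 11 of the 29 genes, the highest for 11 and between for 7. These ranks were not counted over all kept probes. The median deviation of the genes there was 0.00, against 0.22 for all kept probes. Wild-type array 3 lay more than 1 log2 unit below the median of the other arrays for 6 genes (20.7%; 15.6% of kept probes), Psma4, Psmb6, Psmb7, Psmc1, Psmd11 and Psmd14, and more than 1 above for 0 (9.46% of kept probes). Marker lists were uneven on this array too. The mean of the keratinocyte list was at its lowest there, 12.41, with Dsp at 6.68 against 9.32 to 11.45 elsewhere, while Krt5 was at its highest, 13.31. The muscle mean was low, and among fibroblast markers the brightest probe of Dcn read 9.14 against 12.95 to 13.71. Fbn1 (10.12) and the brighter probe of Lum (12.80) were at their highest. Probes of the same marker disagreed there. The other Lum probe was at its lowest, 6.94 against 10.67 to 11.18 elsewhere. Of the 4 kept Dcn probes, that with accession AK031456 was at its highest, 7.03, and the rest were at their lowest. The part of these markers in the proteasome values was not tested. Within bo20 the 29 differences ran from -0.34 to 0.92 with a median of 0.11, and within bo12, a single pair that includes wild-type array 3, from -0.61 to 3.85 with a median of 0.03. The signs within the 2 prefixes were opposite for 6 genes.

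Different probes of the same gene showed how far a value hangs on the probe. Of the 29 genes, 15 had several kept probes, and in 5 of these, Psmb7, Psmc4, Psmc5, Psmd7 and Psmd11, the probes differed in sign. Without wild-type array 3 the signs differed in 9 of the 15: Psmb7 was no longer among them, and Psmc2, Psmd1, Psmd9, Psmd10 and Psmd12 were. Psmc5 read 11.53, 11.70 and 11.53 in wild type and 11.70, 11.40 and 11.51 in mutants by its brighter probe, but 11.41, 11.62 and 9.09 and then 11.87, 11.53 and 11.37 by the other. The 2 probes gave -0.05 (SE 0.20) and 0.88 (SE 0.65), and -0.07 and 0.07 without wild-type array 3. For Psmc4 they gave -0.04 and 0.75, and without that array 0.00 and -0.07. The 4 probes of Psmb7 gave -0.16 to 0.46, and 0.00 to 0.11 without it. Psmd7 gave -0.07, 0.37 and -0.43 from 3 probes, with 0.08, 0.49 and -0.14 without it, and Psmd11 gave 0.68 and -0.05, with 0.09 and -0.61 without it.

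Probes of 10 of the 15 genes lay more than 1 log2 unit apart in their deviation from the other arrays in wild-type array 3. In any of the other 5 arrays, measured from the 6-array median, such a gap was seen for 3 genes, Psmc2, Psmd7 and Psmd12. Psmc2 and Psmd12 each have a bright probe that was even over the arrays and a dim one that was low on both bo12 arrays: the dim probe of Psmc2 read 6.37, 6.98 and 4.34 in wild type and 6.88, 7.28 and 4.57 in mutants. The dim probe of Psmd12 read 5.65, 6.12 and 4.35 in wild type and 6.74, 5.93 and 4.55 in mutants. Of the 49 proteasome probes, 5 (10.2%) were detected on all 4 bo20 arrays and on neither bo12 array, against 1.52% of kept probes. They belong to Psmc2, Psmd6 (both its probes), Psmd11 and Psmd12. Among the 29 probes that represent the genes, only 1 (3.45%), that of Psmd6, had this pattern. Since a probe had to be detected on 3 arrays to be kept, the opposite pattern could not occur.

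**Figure D4:**
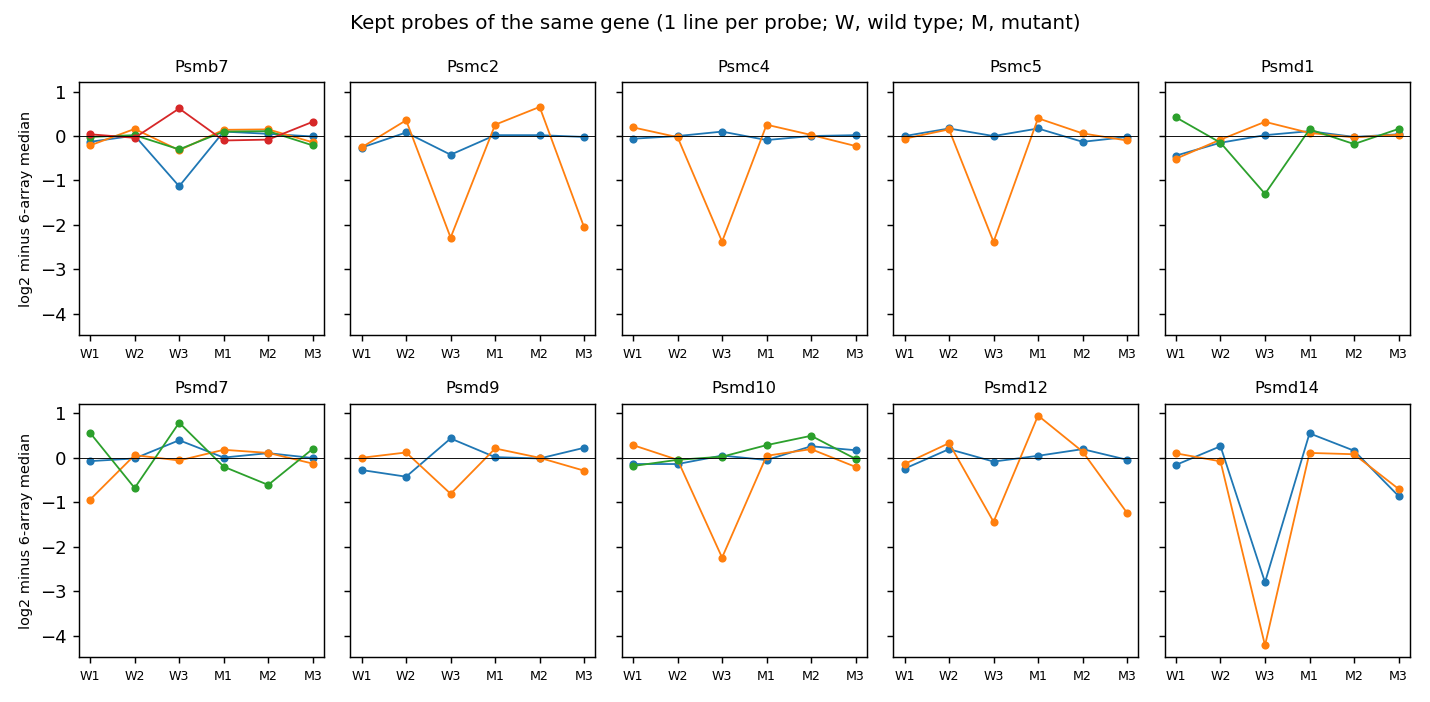
Log2 level of each kept probe minus its own median over the 6 arrays, for the 10 genes whose probes lay more than 1 log2 unit apart in wild-type array 3 (W3); each line is a probe. In Psmc4, Psmc5 and Psmd10 a single probe drops by over 1 log2 unit in W3 while the others stay level, and in Psmc2 and Psmd12 the dimmer probe also drops in mutant array 3 (M3).

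Genes that act on the proteasome were counted in the same way. Of 5 genes, the core activators Psme1 to Psme4 and the inhibitor Psmf1, 2 were above 0 and 3 below (median -0.09, and 0.12 without wild-type array 3). Psme4, the activator PA200, read 10.75, 10.77 and 10.80 in wild type and 11.20, 11.02 and 10.99 in mutants, so that the groups did not overlap, with a difference of 0.30 (SE 0.19, adjusted p = 0.791), or 0.31 without wild-type array 3. Of the core assembly chaperones 4 of 5 were measured, with a median of -0.23 (-0.02 without wild-type array 3). Psmg2, a partner of Psmg1 in alpha-ring assembly, had 3 kept probes, which differed by -0.55 (SE 0.26), -0.06 and 0.38, and by -0.37, 0.16 and -0.03 without that array. Pomp, which matures the beta ring, differed by 0.06 (SE 0.19), and by 0.07 without it. Neither list held a gene past the threshold, with or without wild-type array 3.

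Of 5 measured cap-bound receptors, deubiquitinases and ligases, 4 were low on wild-type array 3. These 4 were above 0, and the median of the 5 was 1.01, and 0.01 without wild-type array 3. The fifth, the ubiquitin ligase Ube3c, went the other way, with 10.04 on that array against 9.06 to 9.40 elsewhere, and differed by -0.19 (SE 0.30), or 0.12 without it. Sem1, a small lid subunit whose symbol the rule did not cover, read 12.72, 12.63 and 8.35 in wild type and 12.54, 12.55 and 12.40 in mutants. Its difference was 1.26 (SE 1.10, adjusted p = 0.793), and -0.18 without wild-type array 3. Uchl5, a deubiquitinase of the base, read 9.91, 10.04 and 6.04 in wild type and 10.31, 10.03 and 9.32 in mutants, a difference of 1.23 (SE 1.03) and -0.08 without that array. Among 6 measured genes of substrate delivery, namely the p97 segregase Vcp with its cofactors Nploc4 and Ufd1 and the shuttle factors Rad23b, Ubqln1 and Ubqln4, 2 were above 0 and 4 below (median -0.10, and -0.03 without wild-type array 3), with Vcp at -0.11 (SE 0.23), or 0.02 without that array. The ubiquitin genes were not analysed here.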

How the data were processed

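Total RNA of 6 epidermal peels was measured on Illumina bead arrays. The authors deposited raw intensity values, 1 per probe and array, made with BeadStudio per the submitters' processing notes. No genome build is named. A deposited fraction stands beside each intensity and was read as 1 minus the detection p because bright probes stand at 1. The authors' deposited log2 table was found to be log2 intensity minus the array's 75th percentile and the probe's median (100% of values within 0.001), with column medians of -0.13 to 0.33.

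Intensities were corrected by normexp (nec, offset 16) and quantile-normalized with limma 3.58.1 in R 4.3.3, and probes detected (fraction above 0.95) on 3 or more arrays were kept, 18358 of 45281. A gene was represented by its kept probe with the highest mean. Mutant was compared with wild type by limma, a two-sided moderated test from lmFit and eBayes. Benjamini-Hochberg adjustment was made over all kept probes, with a threshold of 0.05. The fit was checked on simulated data with the same noise for every probe and no outlying array. That check therefore does not cover an array like wild-type array 3. The number of arrays limits precision. Symbols are those of the platform annotation (35784 probes with 1 symbol, 9497 without), updated through Entrez identifiers for the related lists. Deviations from the group means correlated between same-numbered arrays (r = 0.270, 0.462 and 0.538), so the replicate number was used as a block in an alternative fit.

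The text describes Psmb5, Psmb6, Psmb7, Psmd2, Psmd4 and Psmd14, the 3 genes with the smallest p in each subcomplex, genes past the threshold without any array or with the prefix as a block (0), genes whose probes differed in sign, and up to 3 genes of each related list; others are named as counts or singled out after their values were seen. The genes and lists were chosen with earlier results of these data known. No other batch than the title prefix was given.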

Additional observations from a re-analysis of the deposited data

How the results depend on the processing

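With 3 arrays a group and 1 that stands apart, the 95% interval lay within 1 log2 unit of 0 for 20 of 29 genes. Dim probes such as the second of Psmd2 and those of Psmd6 read near background. In limma, 0 proteasome genes passed under any of 19 alternatives, of which the single pair within bo12 allows no test. With the replicate number as a block, 0 kept probes passed, so this block changed no call. Kept probes that passed numbered 1 without background correction, 6 in the authors' table, 48 with the prefix as a block, 78 within bo20, 129 with array weights and 0 to 51 when an array was left out. The median over the 29 genes was 0.27 in the authors' table, where the alpha ring stood at 0.34 and the ATPase ring at 0.33. Within bo20 the alpha ring was at 0.083. Within bo12 the alpha ring was at 0.46, the ATPase ring at 0.28, the base at 0.015 and the chaperones at -0.22, and with the mean of all probes of a gene the ATPase ring was at 0.36. Leaving out an array moved the lid between -0.079 and 0.23. Of 361 alternative values of the described genes, 11 had the opposite sign: Psmd4 at 0.10 in the authors' table, Psmd5 at 0.16 with median scaling, 0.10 in the authors' table, 0.25 with array weights and 0.23 within bo20, Psmd9 at -0.22 within bo12, and with an array left out Psmc3 (-0.034 to 0.22), Psmd5 (-0.22 to 0.27), Psmd9 (-0.0071 to 0.44) and Psmd14 (-0.10 to 1.42). Median scaling moved the median of all kept probes to 0.42, and its values are given relative to that. The cause of these changes was not tested.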
